A study of Mus musculus with 8 samples.

Results

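The elastic fibre genes described here are 10 of the 46517 genes counted in a single-cell atlas of the mouse liver, chosen by name: *Eln*, *Lox*, *Fbn1*, *Mfap2*, *Mfap4*, *Mfap5*, *Fbln1*, *Fbln2*, *Fbln5* and *Emilin1*. All 10 were present in the count table. The atlas holds 3491 cells from the livers of healthy adult mice of both sexes, each cell sorted into a well of a plate and sequenced by Smart-seq2, which reads along the whole transcript without molecular identifiers. The cells fall into 4 classes, and the male and the female cells of a class form a pool, which gives 8 pools. The pools held 998 male and 339 female mesenchymal cells, 655 and 451 endothelial cells, 255 and 396 immune cells, and 358 and 39 epithelial cells, the last being hepatocytes and cholangiocytes.

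The mice were *C57BL6/J* and heterozygous reporter lines (*Pdgfrb* GFP, *Acta2* GFP, *Cldn5* GFP, *Cspg4* dsRED, *Pdgfra* H2bGFP), alone or combined. No group carried a treatment or a deletion, and the labels of the cells do not say which mouse or line a cell came from. Mesenchymal cells were sorted on the *Pdgfra*, *Pdgfrb* and *Acta2* reporters or on an antibody to PDGFRα, endothelial cells on CD31, VE-Cadherin or the *Cldn5* reporter, cholangiocytes on EPCAM and macrophages on CD68, while hepatocytes came from a sort of living cells without a marker. The numbers of cells in each class therefore reflect the sort. Each pool counted as 1 replicate. Since no mouse is named, the p values below measure only the spread between the pools.

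Elastic fibres give vessel walls, ducts and the organ capsule their recoil. Tropoelastin is deposited on a scaffold of fibrillin microfibrils with the help of fibulins, and lysyl oxidases then cross-link it into insoluble elastin. Microfibril-associated glycoproteins and emilins sit on or between these parts, and in the normal liver elastic fibres are known from portal tracts, vessel walls and the capsule.

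*Eln*, which encodes tropoelastin, lies on chromosome 5 (134702593 to 134747323, minus strand, GRCm38), and *Lox*, the lysyl oxidase, on chromosome 18 (52516067 to 52529867, minus strand). *Fbn1*, the main fibrillin of microfibrils, lies on chromosome 2 (125300594 to 125507993, minus strand). The genes of the microfibril-associated proteins lie on chromosome 4 (*Mfap2*, 141010418 to 141015984, plus strand), chromosome 11 (*Mfap4*, 61485431 to 61488900, plus strand) and chromosome 6 (*Mfap5*, 122505845 to 122529290, plus strand). The fibulin genes *Fbln1* (15, 85205949 to 85286535, plus strand), *Fbln2* (6, 91212455 to 91272540, plus strand) and *Fbln5* (12, 101746565 to 101819055, minus strand) lie on separate chromosomes. *Emilin1*, whose product lies at the interface of elastin and microfibrils, is on chromosome 5 (30913402 to 30921277, plus strand). Exons of *Eln*, *Fbn1*, *Mfap4* and *Lox* overlap a gene on the opposite strand by 267, 2442, 89 and 30 bases, and since the protocol does not mark strand, reads from these stretches cannot be told apart.

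RefSeq promoter windows of GRCm38.p6 were available here for 6 of the 10 genes, with 9 start sites in all. The 250 bases before the start are printed for *Fbln1*, *Mfap2* and *Fbln5*, as examples of genes with different patterns across mesenchymal cells. Each of these genes had 2 start sites, and the window shown is that of the more upstream start. Capitals mark GGGCGG or its reverse complement.

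Fbln1, chr15:85205699-85205948, plus strand: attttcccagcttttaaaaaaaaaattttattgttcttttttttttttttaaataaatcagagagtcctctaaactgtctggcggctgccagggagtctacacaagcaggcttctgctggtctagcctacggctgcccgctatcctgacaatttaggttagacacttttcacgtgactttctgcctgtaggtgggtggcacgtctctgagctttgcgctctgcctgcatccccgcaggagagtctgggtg

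Mfap2, chr4:141010174-141010423, plus strand: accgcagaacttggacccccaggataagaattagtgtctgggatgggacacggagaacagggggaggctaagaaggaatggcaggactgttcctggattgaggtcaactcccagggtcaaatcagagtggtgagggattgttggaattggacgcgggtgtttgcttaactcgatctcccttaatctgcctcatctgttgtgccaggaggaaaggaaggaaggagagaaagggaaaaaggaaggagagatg

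Fbln5, chr12:101819120-101819369, minus strand: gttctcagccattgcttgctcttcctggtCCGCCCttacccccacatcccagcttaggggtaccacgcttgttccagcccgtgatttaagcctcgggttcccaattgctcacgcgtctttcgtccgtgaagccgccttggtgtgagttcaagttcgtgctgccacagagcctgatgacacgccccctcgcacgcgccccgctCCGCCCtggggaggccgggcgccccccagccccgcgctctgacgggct

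The windows of the other start hold another number of matches, 1 GGGCGG for *Fbln1*, 2 for *Mfap2* and 0 for *Fbln5*, so the windows shown give no contrast between the genes. The motif GGGCGG, searched on both strands, was found in 5 of the 9 windows and in 32.7% of 32851 promoter windows of the same length. TATAAA was in 0 of the 9 and in 12.4% of all windows, and TGANTCA in 0 of the 9 and in 6.75%. A match or its absence describes these letters only.

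All 10 genes had their highest level in the mesenchyme except *Fbln2*, which was higher in the endothelium. Levels are CPM, the counts of a gene over the summed cells of a pool scaled to a common total, and each pair of values gives the male pool first. Cells had 50042 to 1143895 counts with a median of 233696, and intervals are not given for the sums, since reads without molecular identifiers are not independent molecules. Mesenchymal cells held 356 and 367 CPM of *Eln*, against 38.7 and 116 in endothelial, 0.47 and 0.366 in immune and 0.847 and 22.8 in epithelial cells. In the female epithelial pool 2 of 37 cholangiocytes had any *Eln*, and 2.70% had 20 counts or more. *Fbln1* had 1708 and 1741 CPM in the mesenchyme and 4.15 and 0.769 in the endothelium, and *Mfap4* 1022 and 1244 and 4.24 and 3.02. Every mesenchymal pool lay above every other pool in both genes, as in all others here but *Fbln2*. The share of all genes with such a gap was not counted. *Emilin1* was shared more widely, with 752 and 846 CPM in mesenchymal, 273 and 299.996 in endothelial and 30.2 and 31 in immune cells.

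In edgeR's quasi-likelihood test on the pool sums, a gene was called at a Benjamini-Hochberg adjusted p under 0.05 and a change of at least 2-fold. All 10 genes were called higher in mesenchymal cells than in the mean of the other classes, where 9.47% of the 24046 genes tested were called higher. The median log2 fold change of the 10 was 5.98, against 0.02 for all genes. (The log2 fold change is given ± its SE throughout, with 2 pools a class.) *Fbln1* (8.20 ± 0.86, adjusted p = 0.00102) and *Mfap4* (8.06 ± 0.42, adjusted p = 1.29e-04) had the largest differences. *Eln* was 5.72 ± 0.86 higher on the log2 scale (adjusted p = 0.00428). The call for *Fbln2* was the weakest (2.43 ± 0.65, adjusted p = 0.0477). It was lost with the pool number as a block (adjusted p = 0.0589) and without the male or the female mesenchymal pool (0.0699 and 0.268), the male endothelial (0.102), the male epithelial (0.072) or the female immune pool (0.0646). It was also lost without the immune and endothelial cells that held transcripts of another type (0.078), so that 7 of 14 alternatives ended it. The call for *Lox* (adjusted p = 0.0166) was lost without the male mesenchymal (0.0634), the male endothelial (0.0577) or the female epithelial pool (0.0529).

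Endothelial cells exceeded immune and epithelial cells in 5 of the 10 genes, *Eln*, *Fbn1*, *Fbln2*, *Fbln5* and *Emilin1*, where 5.84% of all genes were called higher. The median of the 10 was 3.40, against 0.06 for all genes. *Fbln2* reached 229 and 509 CPM in the endothelium, above its 113 and 228 in the mesenchyme in either sex. Its log2 difference from immune and epithelial cells was 5.24 ± 0.78 (adjusted p = 0.00691). *Fbn1* had 69.4 and 68.7 CPM and *Fbln5* 139 and 145, with log2 differences of 5.24 ± 0.70 and 4.26 ± 0.35 (adjusted p = 0.00441 and 8.84e-04). The call for *Eln* (adjusted p = 0.0186) was lost without the female endothelial (adjusted p = 0.0828), the male immune (0.0536) or the female immune pool (0.0582). With the pool number as a block *Mfap2* was called as well (adjusted p = 0.0429). In epithelial cells *Fbln2* had the highest CPM of the 10 in both pools, at 41 and 150.3 CPM in cholangiocytes. Few of these cells held 20 counts or more of it, 0% of 8 male cells on 1 plate, 6.71% of 149 male cells on others and 13.5% of 37 female cells.

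**Figure D1:**
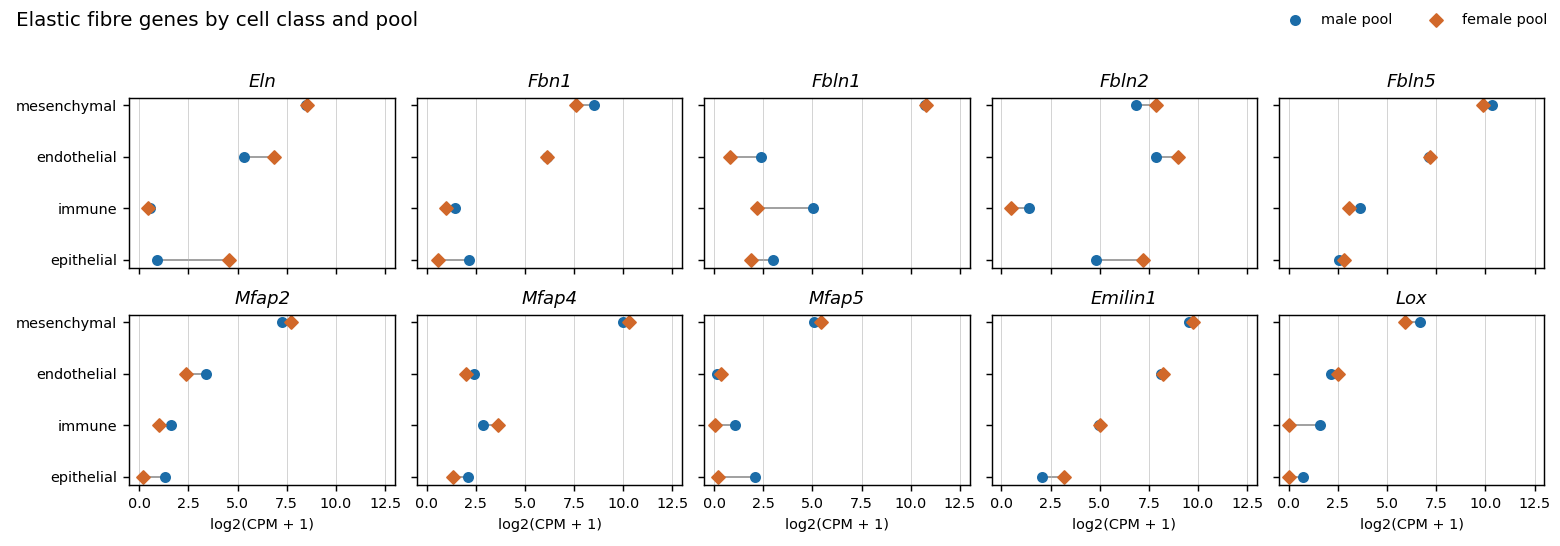
Level of each elastic fibre gene, as log2(CPM + 1), in the male (blue circles) and female (orange diamonds) pool of each cell class. The mesenchymal pools lie furthest to the right for every gene but *Fbln2*, where the endothelial pools reach 229 and 509 CPM.

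A few counts of these genes appeared in cells that should lack them. Among 155 hepatocytes of 1 male plate, 61.9% had at least 1 count of *Fbln5* and 98.1% at least 1 of *Dcn*, a fibroblast proteoglycan, while at most 1.29% had 20 counts or more of any of the 10 genes. Shares of cells are therefore given at 20 counts or more. All 339 female mesenchymal cells shared 1 plate. The 4 immune cells on it had 255 CPM of *Fbln1* and 588 of *Mfap4*, against 0.766 and 5.09 in the 392 female immune cells on other plates. All 4 are among the cells that the authors annotated Cont. In them, transcripts of another cell in the same well and RNA from other wells cannot be told apart. Low female values of these genes and RNA from other wells cannot be told apart. In summed cells, fewer cells expressing a gene and less RNA in each of them cannot be told apart either.

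Within the mesenchyme the clusters of the authors were fibroblasts (the portal clusters m1, m8 and m10, peribiliary m4, and *Wt1*+ m11c and m12c), smooth muscle cells (arterial m2c, venous m8c and m9c, and m15c of large veins), second layer cells (m5c), capsular hepatic stellate cells (cHSC, m3c) and hepatic stellate cells (HSC, m7c). The summed smooth muscle markers *Acta2*, *Tagln*, *Myh11*, *Cnn1* and *Notch3* reached 6751 to 16732 CPM in the smooth muscle clusters and 129 to 1823 in all others. The HSC markers *Reln*, *Lrat*, *Hgf* and *Ngfr* summed to 6706 and 6327 CPM in HSC. The 4 female HSC were too few for a sum in the tests, which asked for at least 5 cells. Because the clusters were made from the same counts, a test between clusters is not independent of the clustering.

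Of the 10 genes, 6 were higher in fibroblasts than in smooth muscle cells, where 2.58% of the 21340 genes tested were called higher. Their median log2 fold change was 1.19, against 0.10 for all genes. Against fibroblasts, HSC and cHSC together had 2 genes called lower, *Fbln1* and *Mfap4* (0.511% of all genes were). Over the clusters with sums in both pools, which leave out HSC, m8 and m10, *Mfap4* differed by -0.17 in males and -0.82 in females (log2(CPM + 1) scale). *Wt1*+ fibroblasts had 2 genes higher and 2 lower than the other fibroblasts, at backgrounds of 0.22% and 0.351%. Large vein smooth muscle cells had 4 higher than the other smooth muscle cells (0.698% of all genes). Arterial smooth muscle cells had 3 lower than the mean of m8c, m9c and m15c (0.722%), and 4 lower than m8c and m9c alone (0.914%), a comparison added after seeing the data. Second layer cells had 3 higher than smooth muscle cells (1.75%). In peribiliary fibroblasts edgeR called 0 of the 10 (0.0469% of all genes), with 2 at an unadjusted p under 0.05 and 2 called by DESeq2. With sums made per plate instead, edgeR called 3 of the 10 higher in fibroblasts than in smooth muscle cells (0.582% of all genes), 2 higher in large vein cells (1.07%) and 0 in *Wt1*+ fibroblasts (0.238% in either direction), where 5 had an unadjusted p under 0.05. Medians of the 10 were -1.98 for stellate cells, 0.40 for *Wt1*+ fibroblasts, 0.78 for large vein, -1.83 for arterial, 1.04 for second layer and 0.18 for peribiliary cells, where the medians of all genes were 0.00, -0.12, -0.32, 0.34, 0.16 and 0.00.

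*Eln* was spread over fibroblasts and smooth muscle alike. It was highest in the *Wt1*+ cluster m12c (932 and 939 CPM), and high as well in peribiliary fibroblasts (478 and 909.6) and the venous smooth muscle clusters m8c (731 and 477) and m9c (706 and 496), whose order differed between the pools. Arterial smooth muscle cells had the least of the smooth muscle clusters among male cells (103), but the female arterial value lay above that of large vein cells (229 against 126). The difference between fibroblasts and smooth muscle cells was 0.48 ± 0.29 on the log2 scale (adjusted p = 0.608), and by sex, over the clusters with sums in both pools and so without m8 and m10, it was -0.11 and 1.29 (male and female, log2(CPM + 1) scale). None of the 8 comparisons within the mesenchyme called *Eln*, although 3 of them had an unadjusted p under 0.05 and DESeq2 called it in 1. In m15c, which the authors annotated as elaSMC, its level was 477 and 126 CPM, below m8c and m9c in both pools, and 71.4% and 30.8% of the cells had 20 counts or more. HSC had 88.1 CPM in the male pool, the lowest of the male populations.

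*Lox* stood out in 1 population. In m12c it reached 866 and 369 CPM, and 76.5% and 76.9% of the cells had 20 counts or more, against at most 40.0% in any other tested population. The related *Wt1*+ cluster m11c had 206 and 17.4 CPM, of which 92.5% came from 1 of 5 female cells. Between *Wt1*+ and other fibroblasts *Lox* differed by 2.53 ± 0.79 (adjusted p = 0.224), and with the pool number as a block it was called (2.73, adjusted p = 0.0183). Among smooth muscle cells *Lox* was highest in m9c (215 and 173 CPM), next to 123 and 22.1 in m8c and 40.5 and 12.1 in arterial cells.

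*Fbn1* was higher in fibroblasts, with a wide spread in smooth muscle. Fibroblast clusters and second layer cells held 242 to 497 CPM, and arterial smooth muscle cells 52.2 and 56.5. In venous smooth muscle cells the pools lay far apart, with 402 and 139 CPM in m8c and 762 and 108 in m9c. Arterial cells differed from m8c and m9c by -2.64 (adjusted p = 0.0364), and with m15c on the venous side the value of -2.18 was not called (adjusted p = 0.0721). The excess of fibroblasts over smooth muscle cells was 1.20 ± 0.32 (adjusted p = 0.0305), and the call was lost under 5 of 8 alternatives (adjusted p up to 0.865).

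*Mfap2*, whose small glycoprotein binds fibrillin, peaked in peribiliary fibroblasts (372 and 468 CPM) and in large vein smooth muscle cells (501 and 246). Arterial cells held 48.7 and 53.3 and cHSC 11.5 and 60.4 CPM, and 87.9% of the female cHSC value came from 1 cell. Large vein cells exceeded the other smooth muscle cells by 2.37 ± 0.52 (adjusted p = 0.0243), but in the male pool 66.2% of the counts came from 1 of 7 cells, and the call was lost with sums of at least 10 cells, which leave that pool out (adjusted p = 0.304), with sums of at least 3 cells (0.051) and per plate (adjusted p of 1). Its call in fibroblasts against smooth muscle cells (1.22 ± 0.34, adjusted p = 0.0447) was lost under 4 of 8 alternatives (adjusted p up to 0.692). Between HSC with cHSC and fibroblasts the difference of -2.24 ± 0.58 (adjusted p = 0.057) passed with the pool number as a block (adjusted p = 0.0328).

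*Mfap4*, which binds elastin and fibrillin, separated populations that lie next to each other. Capsular stellate cells held 1230.2 and 978 CPM and HSC 54.3 CPM in the male pool, where 65.9% of cHSC and 4.41% of HSC had 20 counts or more. The 4 female HSC, too few for the tests, had 101 CPM. Of the female cells 81.8% of cHSC and 50.0% of HSC passed that limit. The log2 difference was 4.25 ± 0.73 (adjusted p = 0.0373). It was the only one of the 10 genes called between cHSC and HSC, where 0.0234% of all genes were called higher. The fibroblast markers *Dpt* and *Col1a1* were also higher in male cHSC (727 and 3708 CPM) than in male HSC (181 and 1231), while *Dcn* was lower (5652 against 7356). The whole list of 5 summed to 12352 and 9905 CPM in cHSC and 10562 in male HSC. Stellate cell markers summed to 2335 and 2629 CPM in cHSC and 6706 in male HSC. The part of either list in the difference was not tested. The spread in the test of cHSC against HSC came from populations other than HSC, which had 1 sum. HSC had a male sum only, and with the pool number as a block the call was lost (adjusted p = 0.0585).

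Among smooth muscle cells *Mfap4* had 1611 and 2035 CPM in large veins, 170.4 and 112 and 247 and 432 in the venous clusters and 20.9 and 96.9 in arterial cells. Large vein cells were 3.60 ± 0.35 higher than the others (adjusted p = 9.91e-06). The log2 fold change of arterial cells was -2.93 ± 0.47 against the other 3 clusters, large veins included (adjusted p = 0.00108), and -1.94 against m8c and m9c alone (adjusted p = 0.0286). The summed fibroblast markers *Pdgfra*, *Col1a1*, *Dpt*, *Lum* and *Dcn* were also lowest in arterial cells, but highest in m9c rather than in large vein cells. Their level was 6756 and 6869 CPM in large vein, 4491 and 2880.4 in m8c, 9574 and 7406 in m9c and 686 and 1005 in arterial cells. Their part in these differences and in those of *Fbln1* below was not tested. The share of arterial cells with 20 counts or more was 0.787% and 69.7%, and *Dcn* passed that limit in 36.2% of male and 100% of female arterial cells. Taken by sex, the difference of arterial cells from the other 3 clusters in *Mfap4* was -4.22 and -2.25 for males and females, on a log2(CPM + 1) scale. Whether RNA from other wells of the female plate plays a part was not tested.

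*Mfap5*, the second small microfibril-associated glycoprotein, was high in only 3 of the tested mesenchymal clusters. It had 359.9 and 363 CPM in m11c, 181 and 211 in m12c and 340.1 and 256 in large vein smooth muscle cells. All other tested populations held at most 3.63 CPM, apart from male peribiliary fibroblasts (28.1 CPM), where 69.4% of the counts came from 1 cell. The 3 clusters did not overlap the others in either sex, but they were picked as high from these same values. The share of all genes with such a gap was not counted. *Wt1*+ fibroblasts exceeded the other fibroblasts by 7.84 ± 0.94 (adjusted p = 1.01e-04), and large vein cells the other smooth muscle cells by 7.84 ± 0.85 (adjusted p = 2.66e-05). Per plate the *Wt1*+ call was lost (adjusted p = 0.172). Even there, 47.9% and 80.0% of m11c, 38.2% and 50.0% of m12c and 28.6% and 46.2% of m15c cells had 20 counts or more. Only 5 female cells stood behind m11c and 7 male cells behind m15c.

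**Figure D2:**
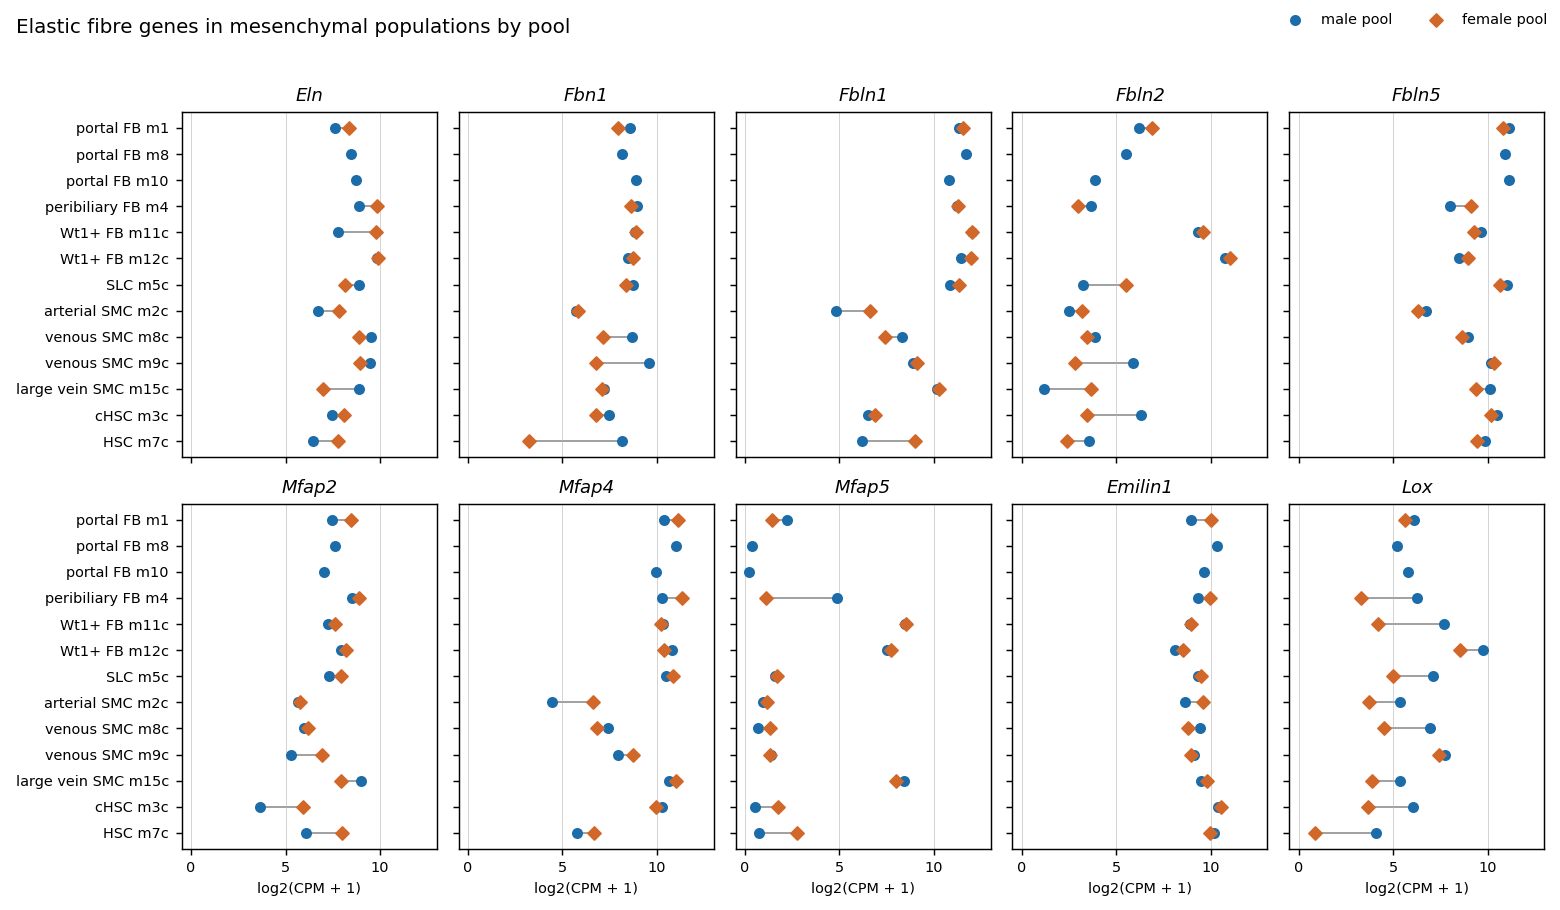
Level of each elastic fibre gene, as log2(CPM + 1), in 13 mesenchymal populations, with the male pool as blue circles and the female pool as orange diamonds. FB are fibroblasts, SLC second layer cells and SMC smooth muscle cells. *Mfap5* is high in m11c, m12c and m15c, *Fbln2* in m11c and m12c, and *Fbln1* separates fibroblasts from arterial cells and HSC. The female HSC point rests on 4 cells.

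*Fbln1*, whose protein is part of elastic fibres and basement membranes, had the largest difference between fibroblasts and smooth muscle cells of the 10 in edgeR's fit of the pool sums. By sex on the log2(CPM + 1) scale, and without the male clusters m8 and m10, *Fbln2* differed by more (4.12 and 4.35 for males and females, against 3.44 and 3.36 for *Fbln1*). Fibroblast clusters held 1812 to 4171 CPM, second layer cells 1881 and 2602, and arterial smooth muscle cells 27.3 and 98.8. cHSC had 89.5 and 116 CPM and male HSC 71.3. The 4 female HSC, too few for the tests, had 520 CPM, and 50.0% of them had 20 counts or more. No fibroblast sum overlapped a smooth muscle or stellate cell sum, and the share of all genes with such a gap was not counted. The log2 difference was 3.27 ± 0.20 against smooth muscle cells (adjusted p = 5.56e-10) and -5.11 ± 0.39 for stellate cells against fibroblasts (adjusted p = 2.04e-07). Large vein cells (1165 and 1244 CPM) were 2.50 ± 0.27 above the other smooth muscle cells (adjusted p = 2.66e-05, and 0.242 per plate), and arterial cells differed from the other 3 clusters by -3.08 ± 0.37 (adjusted p = 4.16e-05). Against m8c and m9c alone this was -2.53 (adjusted p = 2.79e-04).

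*Fbln2*, which binds fibrillin and basement membrane proteins, was high, within the mesenchyme, in *Wt1*+ fibroblasts. It had 1700.0 and 2057 CPM in m12c and 638 and 765 in m11c, next to 71.4 and 119 in m1 and 11.8 and 6.87 in peribiliary fibroblasts. *Wt1*+ fibroblasts exceeded the others by 5.41 ± 0.77 (adjusted p = 7.67e-04, and 0.267 per plate), and fibroblasts exceeded smooth muscle cells by 3.09 ± 0.51 (adjusted p = 4.64e-04, and 0.168 per plate). Peribiliary fibroblasts differed from the other fibroblasts by -4.08 ± 1.02 (adjusted p = 0.17), which DESeq2 called (adjusted p = 0.00114). Several low values rested on single cells, since 96.8% of the male m9c counts and 91.4% of the male HSC counts came from 1 cell each.

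*Fbln5*, which tethers elastin to microfibrils and to cells, had another order. Portal fibroblast clusters held 1780 to 2243 CPM and second layer cells 2085 and 1626, whereas peribiliary fibroblasts had 259 and 549.6 and *Wt1*+ clusters 356 to 803 CPM. cHSC (1437 and 1157) and male HSC (912) lay between these and did not differ from fibroblasts beyond the spread (0.08 ± 0.25, adjusted p = 1). Over the clusters with sums in both pools, which leave out HSC, m8 and m10, the difference was 1.17 in males and 0.65 in females (log2(CPM + 1) scale). *Wt1*+ fibroblasts were lower than other fibroblasts (-1.30 ± 0.24, adjusted p = 0.0109), a call lost with sums of at least 10 cells (adjusted p = 0.0676) and per plate (0.136), and peribiliary fibroblasts showed -1.69 ± 0.32 (adjusted p = 0.0508 by edgeR and 0.00656 by DESeq2). Arterial smooth muscle cells, at 106 and 79.4 CPM, had the lowest level, with a log2 fold change of -3.01 ± 0.35 against the other 3 clusters (adjusted p = 3.47e-05) and of -2.96 against m8c and m9c alone. Second layer cells were called higher than smooth muscle cells for *Fbln5* (adjusted p = 7.39e-05), for *Fbln1* (2.84 ± 0.25) and for *Mfap4* (2.60 ± 0.33). The 5 fibroblast markers summed to 14027 and 12878 CPM in second layer cells, above every smooth muscle cluster, and their part in these differences was not tested. *Fbln5* was also called higher in fibroblasts than in smooth muscle cells (1.18 ± 0.18, adjusted p = 1.38e-04), and with second layer cells counted as smooth muscle it was under the 2-fold limit (0.78). By sex, and without the male clusters m8 and m10, this difference was 0.31 in males and 0.87 in females (log2(CPM + 1) scale), also under that limit. Large vein cells showed 1.12 ± 0.27 (adjusted p = 0.0513), called with the pool number as a block (adjusted p = 0.0494).

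*Emilin1* had the narrowest range of the 10 across the tested mesenchymal sums, 277 to 1513 CPM. Its highest levels were in cHSC (1331 and 1513 CPM), the male portal cluster m8 (1303) and male HSC (1146), and its lowest in m12c (277 and 373). Only the decrease in *Wt1*+ fibroblasts passed the test (-1.15 ± 0.26, adjusted p = 0.0437), and it was lost with sums of at least 10 cells, which leave out the 5 female m11c cells (adjusted p = 0.168), with sums of at least 3 cells (0.0568) and per plate (0.658). Fibroblasts and smooth muscle cells differed by 0.21 ± 0.19 (adjusted p = 0.898).

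The endothelium held a smaller set of these genes, and large vessels and sinusoids differed in it. Its clusters were e1 (central vein), e2 (portal vein, with 14 cells that the authors annotated PBV), e4 (lymphatic), e3, e5, e6 and e8 (sinusoidal) and e7. The authors' annotation put e7 with the central vein. The sinusoidal markers *Stab2* and *Mrc1* summed to 527 and 757 CPM in e7, against 137 and 124 in e1 and 5432 and 5164 in e3. The main sinusoidal group counted e7 in, and the central vein comparison set e1 against all other clusters, e7 among them. Calls lost with e7 counted as central vein are given with that value. The 10 genes summed to 1226 and 1350 CPM in e7, 1316 and 1690 in e1, and 339 to 840 in e3, e5, e6 and e8.

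*Eln* had 134 and 312 CPM in central vein and 83.9 and 138 CPM in portal vein cells. In e3, e5 and e8 it reached at most 1.15 CPM, and 0% of these cells had 20 counts or more, compared with 28.4% and 42.2% in e1. Central vein cells were 5.03 ± 0.63 above the mean of the other clusters (adjusted p = 5.22e-04) and portal vein cells 3.84 ± 0.65 (adjusted p = 0.00463). The log2 fold change of the sinusoidal group against e1, e2 and lymphatic e4 was -5.70 ± 0.63 (adjusted p = 1.11e-04), or -7.25 with e7 left out.

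*Fbln2* was the most abundant of the 10 in venous endothelium by CPM, at 553 and 805 in e1 and 959 and 878 in e2. Cells of e6 kept 316 and 312 CPM, while e3 and e5 held at most 10.1. *Fbln5* had 455 and 401 CPM in e1 and 381 and 218 in e2, and at most 4.33 in e3, e5, e6 and e8. Both were called higher in portal vein (*Fbln2* 3.87 ± 0.53, *Fbln5* 4.17 ± 0.43, adjusted p = 9.86e-04 and 7.24e-05) and in central vein cells (3.41 ± 0.54 and 4.79 ± 0.42, adjusted p = 0.00344 and 8.56e-06). Both were lower in sinusoids (-3.84 ± 0.48 and -7.20 ± 0.44, adjusted p = 3.75e-04 and 3.66e-07).

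Among endothelial clusters *Lox* was concentrated in portal vein cells. It had 29.9 and 26.7 CPM in e2 and 3.78 and 0 in e1, where 84.3% of the male counts came from 1 cell. All other clusters held at most 0.624 CPM. The portal vein difference was 7.33 ± 1.15 (adjusted p = 0.00279), yet only 4.41% and 8.33% of e2 cells had 20 counts or more. *Lox* was also called in the sinusoidal comparison (-5.25 ± 1.16, adjusted p = 0.0248), which was lost with e7 counted as central vein (adjusted p = 0.133) and with sums of at least 10 cells (0.0558).

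*Emilin1* ran the other way. Sinusoidal clusters e3, e5, e6 and e8 held 298 to 593 CPM, and central and portal vein cells 74.6 and 89.6 and 84.9 and 123. The sinusoidal group was 1.66 ± 0.41 higher (adjusted p = 0.0448), or 1.71 with e7 left out (adjusted p = 0.0401). The call was lost with the pool number as a block (adjusted p = 0.0643), with e7 counted as central vein (0.0609) and per plate (0.186).

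Counted over the 10 genes, portal vein cells had 4 called higher (1.85% of the 18321 genes tested) and central vein cells 3 (1.32%). The sinusoidal group had 4 lower (1.16%) and 1 higher (0.759%). Median log2 fold changes of the 10 were 1.17, 1.72 and -2.03, against 0.18, 0.20 and 0.11 for all genes. *Fbn1* passed in none of these 3 comparisons, at 155 and 229 CPM in portal vein cells and 85.3 and 71 in central vein cells. In e7 its level was 298 and 1.04 CPM, and 7.04% and 0% of e7 cells had 20 counts or more.

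Lymphatic endothelium (9 male and 13 female cells) had 4 genes called higher, where 4.92% of all genes were, but 2 of these rested on 1 cell. *Fbln5* had 1864 and 429 CPM, the highest of any endothelial cluster in both pools, and exceeded the other clusters by 6.47 ± 0.42 (adjusted p = 1.30e-07). *Eln* had 112 and 43 CPM (3.34 ± 0.67, adjusted p = 0.00499), a call lost without the 9 male cells (adjusted p = 0.0925) and per plate (0.917). *Fbln1* (298 and 0.558 CPM) and *Mfap4* (196 and 4.19) were called too, at 7.46 and 5.11.

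One male cell of e4 gave 99% of the *Fbln1* and 96.5% of the *Mfap4* counts. It held 1107 counts of *Dcn* and 282 of *Lum*, both fibroblast genes, and 0 of the lymphatic markers *Prox1* and *Mmrn1*. Without it the male levels were 4.19 CPM of *Fbln1* and 9.21 of *Mfap4*, and neither passed (log2 fold change 1.48 and 1.21, adjusted p = 0.525 and 0.606). *Emilin1* without it was lower than in the other clusters (-2.53, adjusted p = 0.00373). *Mfap2* had 0 counts in e4, at least 15.7-fold lower than its mean in the other clusters when set against a floor of 3 counts over both pools, which covers counting error only.

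**Figure D3:**
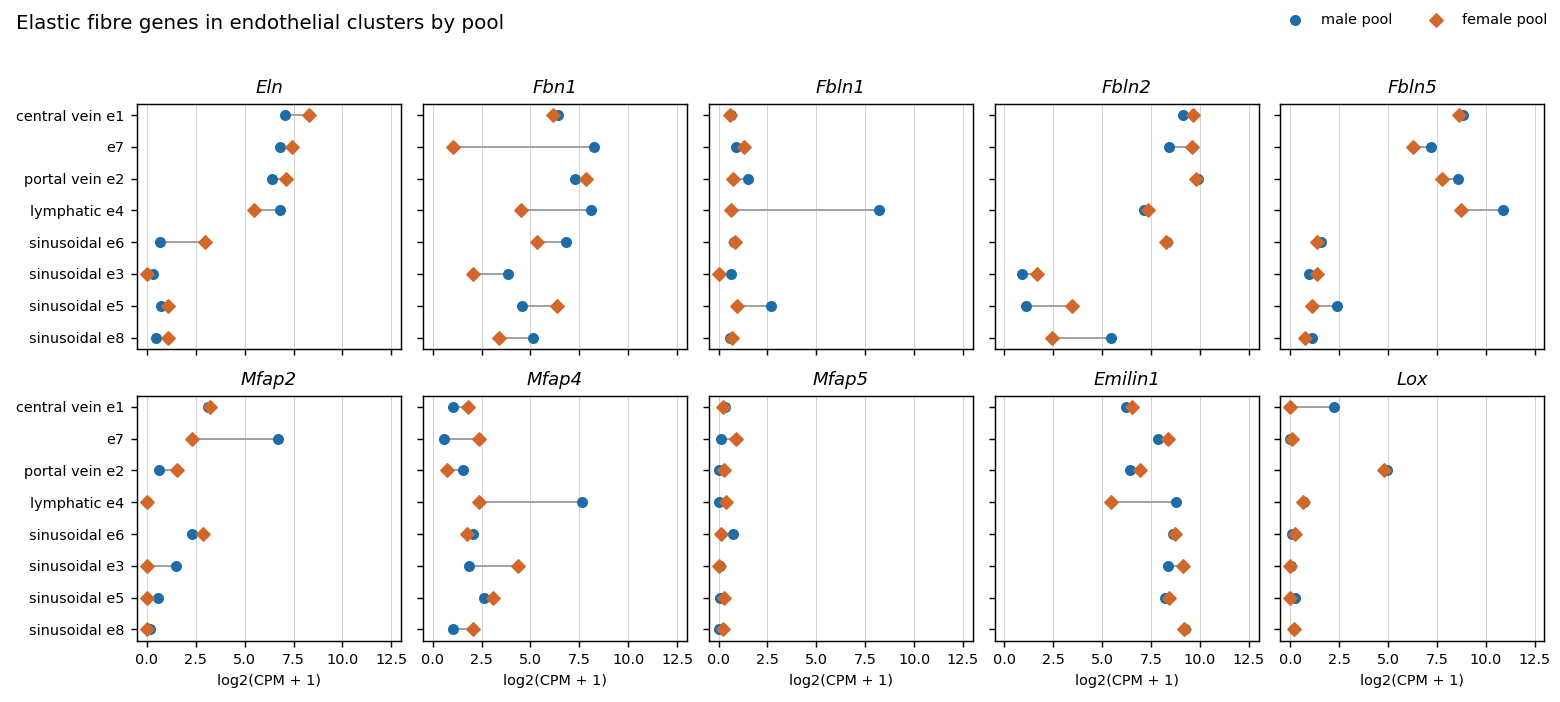
Level of each elastic fibre gene, as log2(CPM + 1), in the 8 endothelial clusters, with the male pool as blue circles and the female pool as orange diamonds. *Eln*, *Fbln2* and *Fbln5* are high in e1 and e2 and low in e3, e5 and e8, while *Emilin1* is higher in the sinusoidal clusters. The male lymphatic values of *Fbln1* and *Mfap4* rest on 1 cell.

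Most of the wider pathway was higher in the mesenchyme as well. Of 25 other elastic fibre and microfibril genes 24 were tested, and 19 were higher and 1 lower in the mesenchyme, at shares of all genes of 9.47% and 2.33%. The largest differences were in *Fbn2*, a second fibrillin (9.78 ± 0.91), the lysyl oxidase homologue *Loxl1* (8.31 ± 0.59), the latent TGF-β binding protein *Ltbp2* (7.80 ± 1.04), *Fbln7* (7.76 ± 1.08) and *Adamtsl2* (7.37 ± 0.53), all at adjusted p values up to 0.00305. *Mmrn2*, an endothelial member of the emilin family, was the gene called lower (-3.18 ± 0.60, adjusted p = 0.011), a call lost without the male mesenchymal pool (adjusted p = 0.0719). *Fbn2* did not pass the filter on low counts per plate. Of 8 proteases that can degrade elastin, against the same shares *Mmp2* (7.10 ± 0.91) and *Ctsk* (4.45 ± 0.81) were higher and *Ctss* (-4.02 ± 0.65) lower in the mesenchyme (adjusted p = 0.00211, 0.00982 and 0.006). Against immune and epithelial cells, the endothelium had 7 of the 24 higher (5.84% of all genes) and 3 lower (3.36%), led by *Mmrn1* (8.80 ± 1.56, adjusted p = 0.0132), with *Efemp1* (-6.06), *Emilin2* (-5.18) and *Loxl1* (-2.79) called lower. The *Mmrn1* call was lost without the female endothelial (adjusted p = 0.0687) or the male epithelial pool (0.0679), and per plate the gene did not pass the filter. The *Loxl1* call was lost under 9 of 14 alternatives (adjusted p up to 0.93). Of the 30 calls of this list in both class comparisons, leaving out 1 pool lost 1 to 6, the most without the female endothelial and without the male mesenchymal pool, and sums per plate lost 5.

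Fibroblasts had 5 of the 24 higher than smooth muscle cells (2.58% of all genes), among them *Emilin2* (4.26 ± 0.79), *Fbn2* (3.98 ± 0.92) and *Loxl1* (2.04 ± 0.21). Second layer cells had 7 higher (1.75% of all genes), led by *Fbn2* (5.10 ± 1.11), the fibulin *Efemp1* (4.27 ± 0.34) and *Ltbp2* (3.66 ± 0.57). Arterial cells had 4 lower than the mean of m8c, m9c and m15c (0.722% of all genes), *Ltbp2* (-5.53 ± 0.98), *Adamtsl2* (-4.16 ± 0.84), *Efemp1* (-2.58 ± 0.49) and *Ltbp4* (-1.67 ± 0.34), and all 4 were kept against m8c and m9c alone. *Wt1*+ fibroblasts had *Efemp1* higher (3.11 ± 0.35) and *Adamtsl2* lower (-3.67 ± 0.60) than other fibroblasts, at shares of all genes of 0.22% and 0.351%. In stellate cells both were higher than in fibroblasts (2.10 ± 0.32 and 2.64 ± 0.49, where 0.754% of all genes were called higher), and large vein cells had *Ltbp1* (2.21 ± 0.44) and *Ltbp2* (2.60 ± 0.63) higher than other smooth muscle cells (0.698% of all genes). Of the 22 calls of this list within the mesenchyme, 3 were lost with the pool number as a block, *Ltbp2* in large vein cells (adjusted p = 0.0914), *Fbln7* in second layer cells (0.092) and *Ltbp4* in fibroblasts, which was then under the 2-fold limit. Per plate 12 were lost, among them *Emilin2* and *Fbn2* in fibroblasts (adjusted p = 0.126 and 0.291), *Fbn2* and *Ltbp2* in second layer cells (both 0.147), *Efemp1* and *Ltbp4* in arterial cells (0.121 and 0.102), and *Ltbp1* and *Ltbp2* in large vein cells. Sums of at least 10 cells lost 5, *Fbn2* in fibroblasts and in second layer cells, *Ltbp4* in fibroblasts, and *Ltbp1* and *Ltbp2* in large vein cells.

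Lymphatic endothelial cells had 9 of 22 tested higher and 1 lower, in the comparison within the endothelium that also called the most of all genes (4.92% higher and 1.88% lower). They were led by *Mmrn1*, itself a marker used for these cells (12.70 ± 0.57), *Tgfb3* (7.73 ± 1.15, adjusted p = 6.54e-04) and *Ltbp2* (7.02 ± 1.20, adjusted p = 0.00169). *Loxl1* was called at 7.19 and *Adamtsl2* at 5.16, and without the cell that held fibroblast transcripts they were -5.76 and -8.29 (adjusted p = 0.394 and 0.261). *Atp7a*, a copper transporter and the gene called lower, had 0 counts in e4, at least 42.5-fold lower than its mean elsewhere by the same floor. *Bmp1*, which processes lysyl oxidase, was higher in portal vein (4.70 ± 1.13, adjusted p = 0.0431, 1.85% of all genes) and lower in sinusoidal cells (-5.39 ± 1.12, adjusted p = 0.0173, 1.16%). Without the female pool the portal vein value turned to -0.36, and its call was lost under 4 of 8 alternatives (adjusted p up to 0.275). The sinusoidal call was lost with e7 counted as central vein (-4.07, adjusted p = 0.0691), with sums of at least 10 cells (0.0715) and per plate (0.13). Of the 14 calls of this list within the endothelium, 5 were lost with the pool number as a block, *Bmp1* in portal vein cells (adjusted p = 0.124) and *Atp7a* (0.053), *Efemp1*, *Ltbp3* and *Adamtsl2* in lymphatic cells, and 8 were lost per plate and 8 with sums of at least 10 cells. *Tgfb2* was higher in central vein cells (4.34 ± 0.90, adjusted p = 0.0213, 1.32% of all genes).

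**Figure D4:**
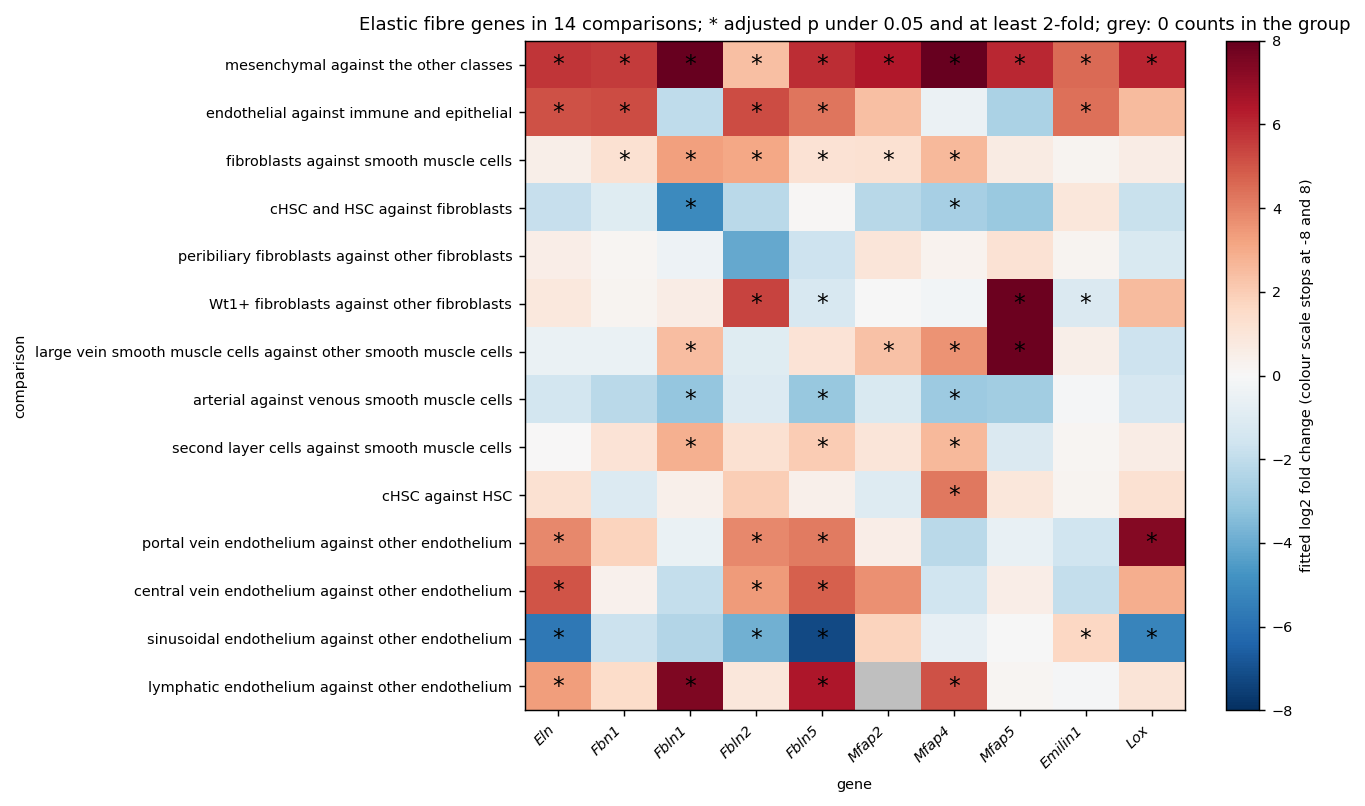
Fitted log2 fold change of each elastic fibre gene (columns) in 14 comparisons (rows), red for higher and blue for lower in the group named first, on a colour scale from -8 to 8. Stars mark an adjusted p under 0.05 with a change of at least 2-fold, and grey a group with 0 counts. The mesenchymal row has 10 stars and the peribiliary row none.

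Levels of different genes can be compared only per length of transcript. Per kilobase of exon, *Mfap4* (532 and 647 CPM per kilobase) and *Fbln1* (391 and 399) led in the mesenchyme, before *Fbln5* (189 and 134), *Emilin1* (152 and 171) and *Mfap2* (124 and 174), whose order differed between the pools. *Eln* (44 and 45.3) came next. *Fbn1* (29.6 and 15.8), *Lox* (20.9 and 12.3) and *Fbln2* (17.7 and 35.8) overlapped between the pools, and *Mfap5* (9.16 and 11.7) was lowest. The exonic length was 1211 bases for *Mfap2* and 12128 for *Fbn1*, and the length of the isoforms in these cells was not measured. The highest count in a cell was 1.03 per exonic base for *Mfap4* and under 1 for the other 9 genes, and 93 of 38793 genes passed 1. Whether reads were capped or deduplicated before counting is not given in the sources used here, which bears on the levels per kilobase.

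Many cells with *Eln* held its partners as well. Of the 604 mesenchymal cells with 20 counts or more of *Eln*, 78.3% passed that limit for *Mfap4*, 73.2% for *Fbln5*, 52.2% for *Fbn1* and 22.4% for *Lox*. Among the 733 other mesenchymal cells the shares were 54.3%, 58.0%, 29.7% and 11.7%. Depth and population differ between these cells, and their part was not tested. In central vein cluster e1, 78.8% of 52 cells with *Eln* passed the limit for *Fbln2*, 53.8% for *Fbln5*, 11.5% for *Fbn1* and 0% for *Mfap4*.

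Across the 23 mesenchymal sums, which share pools, plates and populations, Pearson's r of log2(CPM + 1) described how alike the patterns were. *Fbln1* went with *Mfap4* (r = 0.81) and *Mfap2* (r = 0.79), whereas *Emilin1* and *Lox* had r = -0.62. Among 12414 genes with enough counts, the one nearest to *Mfap4* was *Serpinf1* (r = 0.94). The nearest to *Fbln1* was *Col6a6* (r = 0.91), which was also nearest to *Mfap2* (r = 0.81). *Mfap5* lay closest to *Scara5* (r = 0.89), *Fbln5* to *Adamts2* (r = 0.88) and *Lox* to *Ecm2* (r = 0.77). *Fbn1* and *Fbln2* were nearest to the unnamed genes *Gm8292* (r = 0.86) and *Gm15675* (r = 0.86), ahead of *Egfr* (r = 0.83) for *Fbn1* and of *Emilin2* (r = 0.86) for *Fbln2*. For *Eln* the nearest was a gene known by a clone name only (r = 0.79), and among named genes *Scn7a* (r = 0.71) was the closest. *Emilin1* had *Smim1* (r = 0.75).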

How the data were processed

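Single liver cells were sequenced by Smart-seq2 with single 50-base reads. The authors deposited raw read counts per gene and cell, made per the labels with bcl2fastq, Bowtie2, Subread featureCounts and Seurat on GRCm38/mm10 (the labels give no tool versions), after filters on counts, genes, mitochondrial and spike-in reads. Cluster names came from their pagoda2 multilevel clusters (m1, e1) and communities (names ending in c). Values of the class tables and the whole table differed in 0 entries, the 92 spike-ins were left out, and 0 columns lacked a sample.

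For each population and pool of at least 5 cells the counts were added up and fitted with edgeR 4.0.16 in R 4.3.3 (TMM, filterByExpr, quasi-likelihood test, 1 term per population, 4 residual degrees of freedom for classes, 10 for mesenchymal and 8 for endothelial populations), with Benjamini-Hochberg adjustment over the genes that passed the filter. Calls required an adjusted p under 0.05 and an absolute log2 fold change of at least 1. Groups were contrasted with equal weight on each population. The authors' test over single cells was not used, since cells are not replicates. Cells left out of the populations were 5 mesenchymal and 6 mesothelial cells, and the 4 female HSC. Code was tested on simulated data.

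Pools share a number by sex, and the populations of a sex come from the same pool. Deviations of same-numbered sums correlated at 0.13 to 0.30 between classes, 0.0048 to 0.26 between mesenchymal and -0.026 to 0.13 between endothelial populations. No plate of 22 held both sexes, so plate and sex cannot be told apart. Alternatives were DESeq2 1.42.0, no filter, other minimum cell numbers, cells thinned to 50000 counts (13 cells left out), sums per plate, the pool number as a block, and each pool left out. The placing of e7 as central vein, the venous group without m15c and the removal of cells with transcripts of another type were chosen after seeing the data. Python 3.11.15 was used for levels and figures. Floors cover counting error only.

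The 10 genes, the 25 other elastic fibre genes and the 8 proteases were chosen with earlier results of these data known. Of the other lists up to 5 called genes per comparison with the largest change could be named, and like genes were ranked among those with at least 10 CPM in at least 3 sums.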

Additional observations from a re-analysis of the deposited data

Results flagged for a closer look

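*Mfap4* differed in direction between the sexes in sinusoidal against other endothelium. On the log2(CPM + 1) scale the male difference was -1.79 and the female difference 1.07, and the difference between the sexes was not tested. In the lymphatic cluster e4, part of the other endothelium, 96.5% of the male *Mfap4* counts came from the cell that also held *Dcn* and *Lum*, and its part in the difference was not tested.

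*Eln* had high levels in mesothelial cells (m16c), which entered no comparison. It reached 605 and 701 CPM in 4 male and 2 female cells, and 89% of the female counts came from 1 cell.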

How the results depend on the processing

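Of the 10 genes, those called moved by over 1.5 times in these settings. With DESeq2, 5 were called between stellate cells and fibroblasts, 2 in peribiliary fibroblasts and 5 in arterial smooth muscle cells. Without the filter on low counts, 8 were called in the endothelium against immune and epithelial cells, 5 in stellate cells and 2 in peribiliary fibroblasts, and with thinned cells 4 in stellate cells and 2 in peribiliary fibroblasts. With sums per plate, 3 were called between fibroblasts and smooth muscle cells, 0 in *Wt1*+ fibroblasts, 2 in large vein cells and 1 in lymphatic cells. With second layer cells counted as smooth muscle, 3 were called in fibroblasts. Sums of at least 10 cells left 2 in *Wt1*+ fibroblasts and 2 in lymphatic cells, the replicate block 0 between cHSC and HSC, and e7 as central vein 3 in sinusoids. Leaving out a pool gave 8 to 10 calls in the mesenchyme and 4 to 6 in the endothelium.

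Directions turned in lymphatic cells for *Fbln1* (-0.74 with at least 10 cells, -0.96 per plate), *Loxl1* (-5.96 with at least 10 cells, -4.59 per plate, -5.76 without the cell with fibroblast transcripts), *Adamtsl2* (-8.36, -6.90 and -8.29 in the same settings), *Efemp1* (-6.18 with at least 10 cells, -4.92 per plate) and the protease *Mmp2* (-1.39 and -1.90), without the male endothelial pool for *Adamtsl2* (-6.78), *Efemp1* (-4.73) and *Mmp2* (-0.14), and in portal vein cells for *Bmp1* (-0.36 without the female and 7.51 without the male pool). The cause was not tested.

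The pool block, beside the values given in the report, changed no other call of the 10 genes. Over all genes, 5 to 2838 were called in the 14 comparisons, 220.0 to 4902 with DESeq2, 50.0 to 4761 without the filter, 40.0 to 3802 per plate, 0 to 2707 with the block and 7 to 2801 with thinned cells. In the 12 comparisons within the mesenchyme and the endothelium, 5 to 1245 were called, 1 to 1456 with at least 10 cells and 8 to 1245 with at least 3. In the 2 class comparisons, 2213 and 2838 were called, and 727 to 2710 without a pool. The comparison of cHSC with HSC has no value without the male pool, since too few female HSC were present.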

Other observations

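The 14 endothelial cells that the authors annotated PBV lay inside the portal vein cluster, with 5 in the male and 9 in the female pool. *Fbln5* had 784 and 3.2 CPM in them, *Fbln2* 318 and 10.7 and *Eln* 1.3 and 172, so that the pools gave opposite orders of these genes. The mesothelial cells had 2.4 and 1057 CPM of *Fbln2* and 2.4 and 565 of *Fbln1*, again with a wide gap between the pools.

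Immune cells held 30.2 and 31 CPM of *Emilin1*. Kupffer cells, the macrophages resident in sinusoids, had 35.5 and 20.3 CPM of it, and male B cells 16.4 CPM. Within the immune class *Fbln1* was highest in the 26 cells that the authors annotated Cont, with 1660.5 and 85 CPM in them, against 2.63 and 0.823 in Kupffer cells.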
